A study of Mus musculus with 3 samples.

Results

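The Il10 cytokine locus was taken as 5 genes of mouse chromosome 1 (Il24, Il20, Il19, Il10 and Mapkapk2) with the 4 intergenic spaces between them, out of 22350 protein-coding genes on chromosomes 1 to 19 and X in the GENCODE M1 annotation. The genes are fixed by symbol and position and not by a measured value, but the locus was picked with earlier results of these data known. Pol_II phosphorylated at Ser5 of its carboxy-terminal domain was mapped by ChIP-Seq, in which an antibody pulls down the DNA that a protein is cross-linked to and the DNA is sequenced. The cells were macrophages grown from the bone marrow of female Fvb mice (Fvb/Hsd in the methods of the study) in medium conditioned by L929 cells. A Ser5 library came from untreated cells and another from cells given LPS (lipopolysaccharide, a cell wall component of Gram-negative bacteria that activates macrophages) at 10 ng/ml for 2 h, and a library of input DNA, sequenced without antibody, came from untreated cells. With 1 library per condition there was no replicate check and no test was run, and every interval below is an exact 95% interval for counting error only.

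IL-10 is the main anti-inflammatory cytokine of macrophages, which make it after LPS as a brake on their own cytokine output. IL-19, IL-20 and IL-24 belong to the same family of cytokines, signal through receptors that hold IL-20 receptor subunits, and act mainly on skin and other epithelia. Mapkapk2 encodes MK2, the kinase that p38 MAP kinase activates and that stabilises the messages of Tnf, Il10 and other inflammatory genes through the RNA-binding protein tristetraprolin. Pol_II with phosphorylated Ser5 is found at promoters and over the bodies of transcribed genes, so a gene that is being transcribed carries more tags than the input over the same DNA.

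In mm9 coordinates the genes lie in this order: Il24 from 132778651 to 132784031, Il20 from 132803769 to 132807873, Il19 from 132829235 to 132836650, Il10 from 132916422 to 132921551, and Mapkapk2 from 132950281 to 132994144. Il10 is read on the plus strand and the other 4 genes on the minus strand, so Il10 and Mapkapk2 point toward each other across a space of 28729 bp. The other spaces are 19737 bp (Il24 to Il20), 21361 bp (Il20 to Il19) and 79771 bp (Il19 to Il10). The annotation places no gene of any kind in the 4 spaces.

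Each tag was counted at its 5′ end and scaled to the library total over chromosomes 1 to 19 and X as TPM (the M standing for 1000000), and densities are TPM per kb of the region. The totals were 7616771 (untreated Ser5), 6249819 (LPS Ser5) and 7533308 (input). A region was called higher or lower after LPS when the ratio of LPS to untreated TPM was at least 2 or at most 0.5 and both Ser5 libraries together held at least 10 tags. Tags come from all cells of a culture, so more cells with Pol_II at a gene and more Pol_II per cell cannot be told apart.

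The sequences that the results turn on are those of the promoters of Il19 and Mapkapk2, the members that passed the rule of size at the TSS (Il19 on few tags, given below), and of the regions around Il10 that held a Ser5 peak after LPS only. The RefSeq promoter table (GRCm38.p6, 250 bases before to 50 after the start) holds 3 of the 5 members, Il19, Il20 and Mapkapk2. All 3 windows were found without a mismatch in the mm9 sequence of the locus, where the RefSeq start of Il20 is that of GENCODE, the start of Il19 lies at −42 bp and that of Mapkapk2 at −276 bp from the GENCODE start, both upstream of it. Capitals mark matches, on either strand, to any of 10 fixed letter strings: TATAAA for the TBP binding site, TGACG for the core of CREB sites, TGANTCA for AP-1 sites, GGGNNNNNCC for the spaced core of NF-kB sites, GAGGAA for PU.1 and other Ets factors, TTNNGNAA for C/EBP factors, TTCNNNGAA for STAT factors, GAAANNGAAA for the interferon-stimulated response element, TGCTGA for the core of Maf sites and GGGCGG for Sp1 boxes. Written 5′ to 3′ on the strand of the gene, the promoters of Il19 (chr1:130940066-130940365, minus strand) and Mapkapk2 (chr1:131097794-131098093, minus strand) read:
Il19 promoter: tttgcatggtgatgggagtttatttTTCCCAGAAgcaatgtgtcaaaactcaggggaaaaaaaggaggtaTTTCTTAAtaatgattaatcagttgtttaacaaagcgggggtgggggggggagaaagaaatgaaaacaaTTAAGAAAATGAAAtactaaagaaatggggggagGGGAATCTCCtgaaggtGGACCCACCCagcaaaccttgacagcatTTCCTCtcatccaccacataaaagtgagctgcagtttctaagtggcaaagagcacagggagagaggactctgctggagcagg
Mapkapk2 promoter: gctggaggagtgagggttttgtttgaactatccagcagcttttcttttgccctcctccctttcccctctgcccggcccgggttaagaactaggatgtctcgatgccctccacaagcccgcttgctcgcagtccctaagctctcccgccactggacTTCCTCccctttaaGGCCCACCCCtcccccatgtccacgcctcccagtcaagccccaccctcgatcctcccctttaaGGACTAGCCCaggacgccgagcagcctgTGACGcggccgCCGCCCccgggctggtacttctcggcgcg

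The Il19 window held an NF-kB core match on the plus strand of the window starting at −77 from the RefSeq start and another on the minus strand at −60, a string that 50.8% of the 32851 promoter windows of the table hold. It also held the interferon-stimulated response element string (3.44% of windows), the STAT string (8.30%), the PU.1 and Ets core (28.3%) and the C/EBP string in 2 places on opposite strands (40.7%), the response element overlapping a C/EBP match. The Mapkapk2 window held a pair of NF-kB core matches, a PU.1 and Ets core, an Sp1 box (35.7% of windows) and a CREB core (20.8%), the last starting 10 bases after the start. Its bases were 63.3% G or C, against 44.0% in the Il19 window and a median of 52.7% over the table. The Il20 window held a single match, an NF-kB core. None of the 3 windows held TATAAA (13.6%), the AP-1 string (7.81%) or the Maf core (19.5%) in these letters. A match of this kind describes the letters and not a bound site.

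The 3 Ser5 peaks printed next were called after LPS and overlapped no peak of untreated cells. They are the nearest such peak upstream of Il10, the longer of the pair inside the gene and the nearest past its end, each given as its central 300 bases on the plus strand of mm9 (chr1:132912010-132912309, chr1:132917628-132917927 and chr1:132930355-132930654), with capitals as above:
Upstream Il10 peak: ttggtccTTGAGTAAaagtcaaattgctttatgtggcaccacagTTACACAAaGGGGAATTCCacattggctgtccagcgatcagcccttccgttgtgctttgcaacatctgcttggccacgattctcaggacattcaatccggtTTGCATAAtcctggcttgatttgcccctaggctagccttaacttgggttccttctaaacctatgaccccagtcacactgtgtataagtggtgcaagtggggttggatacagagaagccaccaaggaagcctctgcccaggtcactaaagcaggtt
Il10 gene peak: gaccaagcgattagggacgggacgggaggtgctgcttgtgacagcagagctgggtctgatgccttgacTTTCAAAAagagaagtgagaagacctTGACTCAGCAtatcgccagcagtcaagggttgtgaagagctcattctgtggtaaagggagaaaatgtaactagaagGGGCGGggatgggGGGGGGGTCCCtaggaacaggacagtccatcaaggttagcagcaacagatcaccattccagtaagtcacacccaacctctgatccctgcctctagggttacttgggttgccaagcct
Downstream Il10 peak: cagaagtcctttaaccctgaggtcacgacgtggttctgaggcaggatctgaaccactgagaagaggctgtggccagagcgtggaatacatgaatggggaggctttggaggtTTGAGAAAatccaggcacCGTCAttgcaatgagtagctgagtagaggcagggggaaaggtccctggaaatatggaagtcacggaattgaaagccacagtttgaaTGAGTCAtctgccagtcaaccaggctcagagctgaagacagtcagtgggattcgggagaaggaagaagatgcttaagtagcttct

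The upstream sequence held 1 NF-kB core match, which 47.3% of the 37048 LPS peaks of at least 300 bp hold in their central 300 bases, and the C/EBP string in 3 places (40.5% of peaks). The sequence inside Il10 held the AP-1 string (9.95%) with a Maf core overlapping it (22.9%), an Sp1 box (24.5%), the C/EBP string and overlapping NF-kB core matches on both strands within 1 stretch rich in G and C. The downstream sequence held the AP-1 string, a C/EBP match and a CREB core (17.9%). The AP-1 string was thus shared by the gene and downstream sequences, and the NF-kB string by the gene and upstream sequences.

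Over the gene bodies, Ser5 density after LPS was highest at Mapkapk2, followed by Il10, Il19, Il24 and Il20. The Mapkapk2 body held 1392 Ser5 tags without LPS and 7261 with it, with 326 in the input. This was 4.17 TPM per kb (3.95 to 4.39) in untreated cells and 26.5 (25.9 to 27.1) after LPS, a ratio of 6.36 (6.00 to 6.74). The Il10 body held 30 tags in untreated cells, 78 after LPS and 44 in the input. Its density was 0.768 TPM per kb (0.518 to 1.1) without LPS and 2.43 (1.92 to 3.04) with it, a ratio of 3.17 (2.06 to 5.00). Both genes were higher after LPS by more than the counting error of the libraries, and the intervals of their ratios did not overlap.

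The 3 other cytokine genes stood much lower. Il19 held 9 Ser5 tags without LPS and 22 with it, 0.159 TPM per kb (0.0729 to 0.302) against 0.475 (0.297 to 0.719), a ratio of 2.98 (1.32 to 7.35). Il24 held 5 and 8 tags, with densities of 0.122 (0.0396 to 0.285) and 0.238 (0.103 to 0.469) TPM per kb and a ratio of 1.95 (0.562 to 7.58). Il20 held 5 and 2 tags, 0.160 (0.0519 to 0.373) and 0.0780 (0.00944 to 0.282) TPM per kb, too few for the rule of size. In untreated cells the intervals of these 3 genes overlapped one another, and after LPS Il19 overlapped Il24 but lay above Il20.

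By the rule of size, 3 of the 4 members with enough tags were higher after LPS in the gene body (Mapkapk2, Il10 and Il19) and 0 were lower, where 5.83% of all 17386 protein-coding genes with enough tags were higher and 11.3% lower. The median ratio over those genes was 0.874, so each of the 3 ratios stood above a background that lay slightly below 1. Among them the ratio of Mapkapk2 lay above 99.4% of genes, that of Il10 above 97.8%, that of Il19 above 97.5% and that of Il24 above 93.7%. With 1 tag per position and strand, and with scaling to the tags outside peaks, Il24 passed the rule as well (2.03 and 2.10), which made 4 of 4 higher. Mapkapk2 moved from above 90.1% of all genes in body density to above 99.2%, and Il10 from above 58.8% to above 84.6%.

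**Figure D1:**
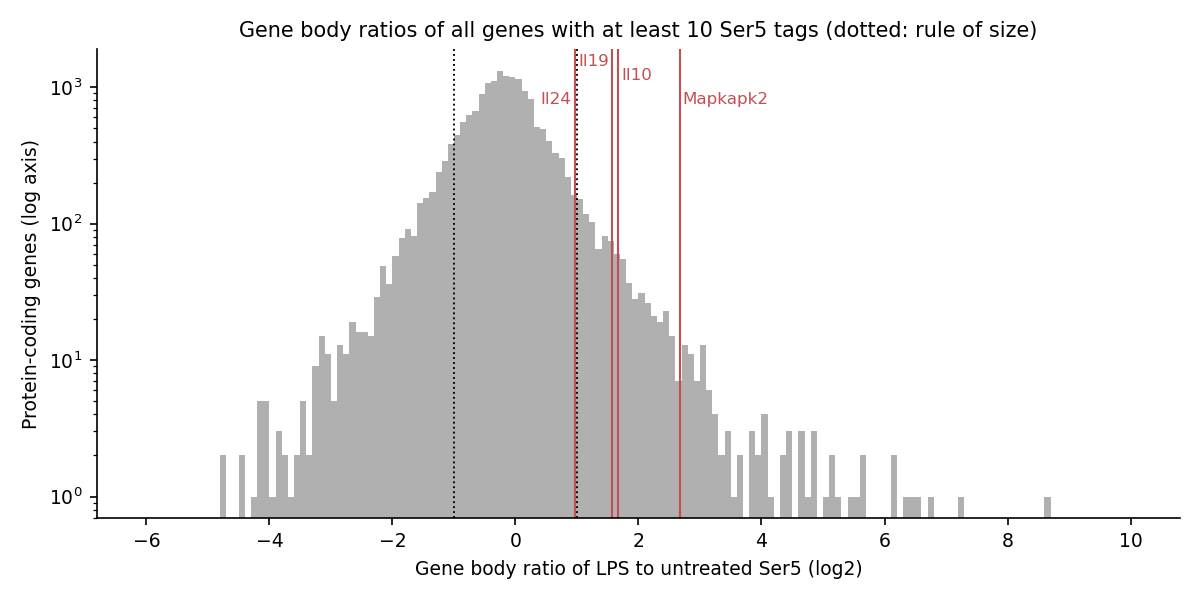
Gene body ratios of LPS to untreated Ser5 on a log2 x axis, as a histogram of the 17386 protein-coding genes with at least 10 Ser5 tags on a log y axis, with dotted lines at the rule of size (2 times lower and higher) and red lines at 4 members. Il24 sits just inside the upper dotted line, while Il19, Il10 and Mapkapk2 lie beyond it at ratios of 2.98, 3.17 and 6.36.

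Set against input DNA, the cytokine genes other than Il10 did not rise above it when libraries were scaled to their totals. For Mapkapk2 the ratio of Ser5 to input over the body was 4.22 (3.74 to 4.78) in untreated cells and 26.8 (24.0 to 30.1) after LPS. For Il10 it was 0.674 (0.409 to 1.1) in untreated cells and 2.14 (1.46 to 3.17) after LPS, so the gene crossed from at or below the input to above it. Il19 went from 0.278 (0.117 to 0.596) to 0.829 (0.459 to 1.47), which still held 1 in its interval. Il24 stayed below the input at 0.150 and 0.292, with upper limits of 0.386 and 0.645, and Il20 stood at 0.380 (0.106 to 1.14) and 0.185 (0.0203 to 0.819). At least 2 times the input was reached by 1 of the 5 members in untreated cells and by 2 after LPS, with 37.6% and 32.9% of all genes with enough tags at that level.

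These ratios to input depend on how the libraries are scaled, because the Ser5 libraries put many of their tags into peaks. Outside the peaks of both Ser5 lists lay 3823373 of the untreated Ser5 tags, 2915575 of those after LPS and 7191095 of the input tags. Scaled to these, Il10 stood at 1.28 times the input (0.778 to 2.09) in untreated cells and at 4.37 times (2.98 to 6.48) after LPS, and Il19 after LPS at 1.70 times (0.939 to 3.01). Il24 after LPS then stood at 0.598 (0.239 to 1.32) and Il20 in untreated cells at 0.723 (0.202 to 2.16), so that their intervals held 1. After LPS, Il10 stood above the input and Il19 within counting error of it under both scalings. In untreated cells the interval of Il10 held 1 under both.

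**Figure D2:**
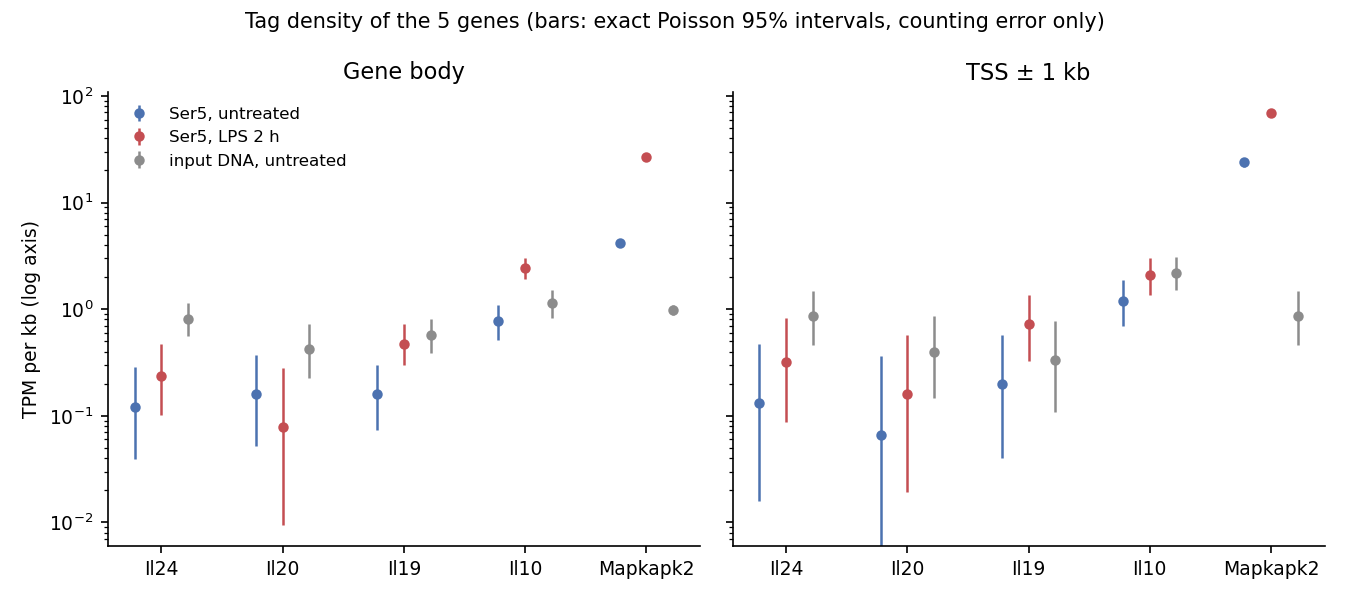
Tag density in TPM per kb, on a log axis, over the gene body and within 1 kb of the TSS of the 5 genes, with points for each library and bars for exact Poisson 95% intervals of counting error. The red points (Ser5 after LPS) of Mapkapk2 and Il10 lie above the blue points (untreated) in the gene body, while at Il24 and Il20 both Ser5 points lie below the grey points (input).

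At the TSS the intervals of the LPS to untreated ratios of Mapkapk2 and Il10 overlapped, unlike in the body, while the densities of these genes lay further apart. Within 1 kb of the Mapkapk2 TSS, 363 Ser5 tags were counted in untreated cells, 872 after LPS and 13 in the input, or 23.8 (21.4 to 26.4), 69.7 (65.2 to 74.5) and 0.862 (0.459 to 1.47) TPM per kb. The LPS to untreated ratio at this TSS was 2.93 (2.59 to 3.32), below the 6.36 of the body. The Il10 TSS window held 18, 26 and 33 tags (1.18, 2.08 and 2.19 TPM per kb), a ratio of 1.76 (0.929 to 3.41). In this window Il10 did not reach 2 times and its interval held 1, whereas with 500 bp on each side it passed the rule at 2.59 (1.06 to 6.93) on 8 and 17 tags. In the wider window its Ser5 density after LPS was 0.95 times that of the input (0.545 to 1.64).

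The Il19 TSS window held 3 tags in untreated cells, 9 after LPS and 5 in the input, a ratio of 3.66 (0.912 to 21.0). When the window was narrowed to 500 bp on each side this ratio became 0.812 on 3 and 2 tags, so its direction rests on a handful of tags. Il24 (2, 4 and 13 tags) and Il20 (1, 2 and 6 tags) had too few tags at the TSS for the rule of size. In all, 2 of the 3 members with enough tags at the TSS were higher (Mapkapk2 and Il19) and 0 lower, where 5.58% of the 12535 protein-coding genes with enough tags were higher and 14.1% lower, with a median ratio of 0.831. The other annotated starts of Il24 and Il20 gave tag counts as low as the first ones, and the second start of Il19, inside the gene at 132835818, gave 3 and 6 Ser5 tags and 12 input tags.

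Around Il10 the tags after LPS were grouped at several places and not at the TSS alone. In bins of 500 bp from 10 kb upstream of Il10 to its end, the highest Ser5 density after LPS lay from −4.5 to −4.0 kb of the TSS, with 3 tags in untreated cells, 18 after LPS and 7 in the input (ratio 7.31, 2.14 to 38.8). Within the gene, the bin from 1.0 to 1.5 kb past the TSS held 6, 16 and 2 tags and the bin from 1.5 to 2.0 kb held 3, 15 and 4 tags. These bins cover the second and the third exons and parts of the introns beside them, and no other bin of the gene body held as many LPS tags.

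A different bin was the highest in untreated cells. From −1.5 to −1.0 kb of the Il10 TSS, untreated Ser5 held 15 tags at 12 distinct positions and strands, Ser5 after LPS 13 tags at 10, and the input 9 tags. The ratio of LPS to untreated there was 1.06 (0.463 to 2.38), so the difference with LPS was within counting error. Scaled to library totals, untreated Ser5 in this bin was 1.65 times the input (0.676 to 4.27), also within counting error. The bin just inside the gene, from 0.5 to 1.0 kb, held more input tags (17) than Ser5 tags in either condition (6 and 7).

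**Figure D3:**
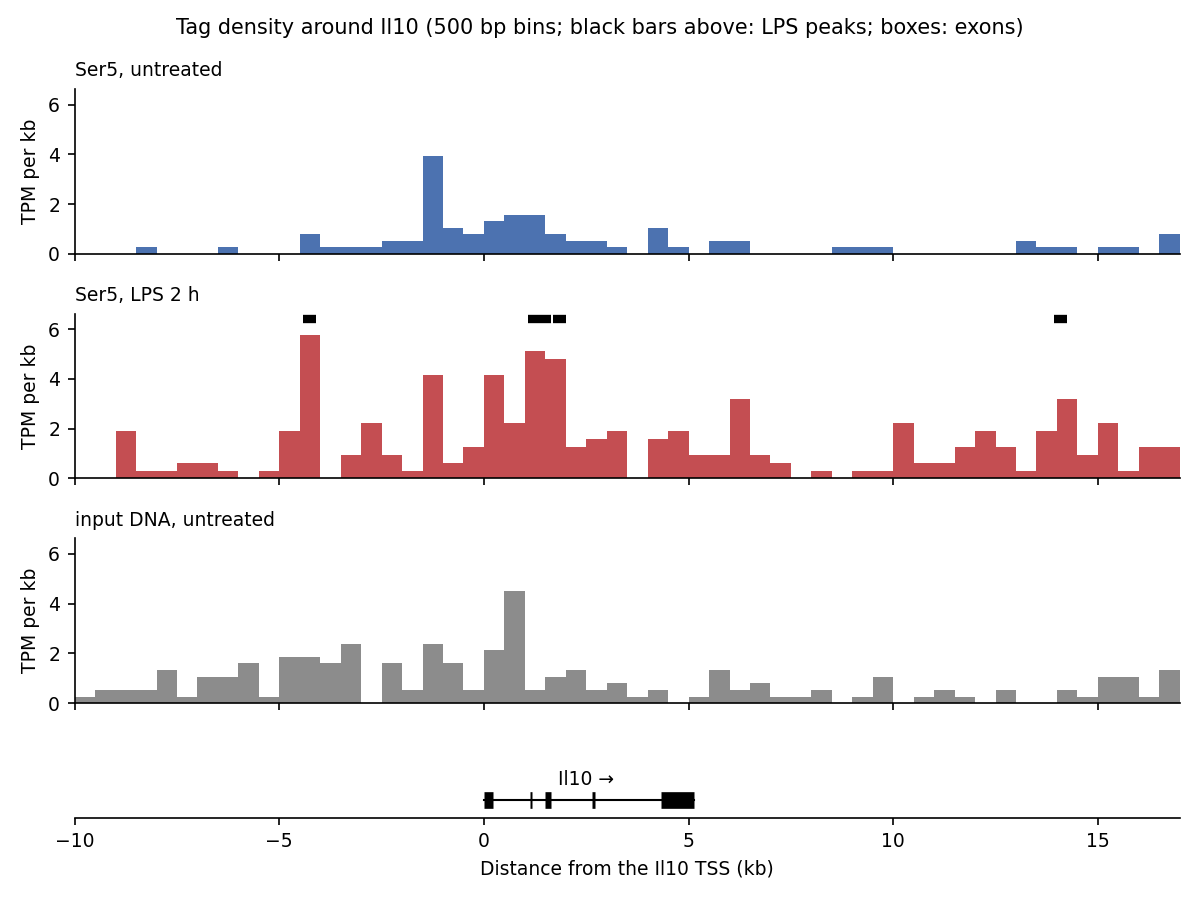
Tag density in TPM per kb around Il10 in bins of 500 bp for the 3 libraries, with the x axis in kb from the Il10 TSS, black bars for peaks called after LPS and boxes for the exons. LPS bars are tallest from −4.5 to −4.0 kb and between 1.0 and 2.0 kb inside the gene, and the tallest untreated bar lies from −1.5 to −1.0 kb.

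The peak lists, called by the authors in each Ser5 library against the input, drew the same places. A peak here is a region where MACS found more Ser5 tags than the input allowed for at a p-value of 1e-05, and its score is the −log10 of that p-value times 10, with 50 the lowest score possible and 3100 the highest found in the locus. Untreated cells had 35 peaks in the locus, 27 in Mapkapk2 and 8 in the space between Mapkapk2 and Il10, and 0 in the cytokine genes or the other spaces. After LPS there were 24 peaks, 12 touching Mapkapk2, 8 touching the space between Mapkapk2 and Il10, 2 in Il10, 2 between Il19 and Il10 and 1 between Il20 and Il19, with the 1 that crosses the Mapkapk2 end counted for the gene and the space. Neither list held a peak in Il19, Il20 or Il24. All 35 untreated peaks overlapped an LPS peak, whereas 9 of the 24 LPS peaks overlapped an untreated peak. The longest LPS peak, of 16675 bp, alone overlapped 14 untreated peaks, so these counts also depend on how peaks were split. No share over all peaks of both lists is given here, so the overlap cannot be read as a trait of the locus.

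The Il10 peaks were short and weak beside those of Mapkapk2. One spanned 132917491 to 132918063 (573 bp, score 75.3), from just before the second exon to just past the third, and held 6 Ser5 tags in untreated cells, 20 after LPS and 3 in the input. The other lay in the third intron, from 132918118 to 132918427 (310 bp, score 51.3), with 2, 11 and 1 tags. The upstream peak, centred at −4263 bp of the TSS (132912005 to 132912314, score 89.4), held 3, 16 and 6 tags, and the tags after LPS stood at 15 distinct positions and strands.

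Further out, 2 LPS peaks lay on the side of Il19. The peak from 132884239 to 132884356, between Il19 and Il10 at −32125 bp of the Il10 TSS, held 1, 7 and 2 tags (score 61.4). The peak from 132815295 to 132815616, between Il20 and Il19, held 6, 10 and 2 tags (score 51.4), a ratio of 2.03. Each of these peaks rests on 20 LPS tags or fewer, and with the stricter limit of p at most 1e-10 (score at least 100) none of the 6 peaks outside Mapkapk2 and its downstream run was left.

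Ser5 in the intergenic spaces was low on the side of the 3 minus-strand cytokine genes and high beside Mapkapk2. Between Il24 and Il20, 16 Ser5 tags were counted in untreated cells, 19 after LPS and 65 in the input (ratio 1.45, 0.705 to 3.01). Between Il20 and Il19 there were 18, 37 and 74 tags (ratio 2.51, 1.39 to 4.67). Between Il19 and Il10 there were 102, 169 and 377 tags (ratio 2.02, 1.57 to 2.61). Scaled to library totals, Ser5 density in these 3 spaces was at most 0.603 times the input (0.395 to 0.906). Scaled to the tags outside peaks, it stayed below the input in untreated cells, but after LPS it was 0.721 (0.408 to 1.22), 1.23 (0.808 to 1.85) and 1.11 (0.917 to 1.33) times the input, each with 1 in its interval.

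The space between Il10 and Mapkapk2 was of another order, with 476 Ser5 tags in untreated cells, 3006 after LPS and 163 in the input. Its density was 2.18 TPM per kb (1.98 to 2.38) in untreated cells and 16.7 (16.1 to 17.4) after LPS, and the ratio was 7.70 (6.98 to 8.50), above that of the Mapkapk2 body. By the rule of size 3 of the 4 spaces were higher and 0 lower, where 4.53% of the 16947 spaces between neighbouring protein-coding genes with enough tags were higher, with a median ratio of 0.847.

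Low tag numbers can also come from sequence that does not map to 1 place. Of all 30-base sequences (30 bases is the length of the LPS tags), those with more than 1 copy in the mm9 assembly made up 27.3% of the Il20 body and 39.7% of the space between Il20 and Il19. In the other spans their share was lower, at 0.0372% of Il24, 1.73% of Il19, 5.98% of Il10 and 4.26% of Mapkapk2, and 15.3% of the space between Il19 and Il10. Tags were 45 bases long in the untreated library and 36 in the input, so repeated sequence takes away more LPS tags than tags of the others. How far this lowered the counts of Il20 was not tested.

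In fixed windows of 2 kb, 107 of which lie in the locus, 48 held enough Ser5 tags, 45 of them passed the rule as higher and 0 as lower. Over the genome 15.9% of the 207781 windows with enough tags were higher and 22.6% lower, with a median ratio of 0.894. The windows called higher took in all 22 that touch Mapkapk2, all 13 with enough tags between Il10 and Mapkapk2, and the 3 that touch Il10. Between Il19 and Il10, 4 of 6 were higher, between Il20 and Il19 both of 2, and at Il19 1 of 2. Neighbouring windows share the same transcribed region and are not independent of each other. No window in Il24, in Il20 or between them held 10 Ser5 tags.

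Mapkapk2 carried Ser5 tags along its length in both conditions, and the shape of the profile differed between them. In untreated cells Ser5 was not above the input everywhere. The 2 kb window from 132966001 held 16 untreated Ser5 tags and 11 input tags, a ratio of 1.44 (0.627 to 3.43). In untreated cells peaks covered 36.6% of the 43864 bp of the gene, and after LPS 95.7%, the longest LPS peak running over 16675 bp. The density at the TSS was 6.15 times that of the rest of the body in untreated cells (5.46 to 6.92) and 2.69 times after LPS (2.50 to 2.89). Among protein-coding genes of at least 20 kb the median of this measure was 13.7 (5868 genes) and 12.7 (5659 genes), so Mapkapk2 was already flatter than most and lay above only 5.25% of genes after LPS. The density over the rest of the body, from 1 kb past the TSS to the end, was 3.87 TPM per kb without LPS and 25.9 with it, a ratio of 6.70 (6.31 to 7.12).

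In 5 equal parts from the TSS to the end, the LPS to untreated ratio was 5.30 (4.76 to 5.93), 6.12 (5.36 to 7.00), 7.80 (6.74 to 9.06), 7.29 (6.22 to 8.57) and 6.39 (5.68 to 7.22). The middle part had the highest ratio and the first part the lowest, and their intervals did not overlap. Density after LPS was 31.8 TPM per kb in the first part, 24.6 in the second and the third, 20.0 in the fourth and 31.5 in the last, so it dipped in the fourth part and was as high before the end as near the start.

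Ser5 did not stop at the annotated end of Mapkapk2. The first 10 kb past it held 433 tags in untreated cells, 2487 after LPS and 66 in the input, with densities of 5.68 (5.16 to 6.25), 39.8 (38.2 to 41.4) and 0.876 (0.678 to 1.11) TPM per kb. The density of this flank was 1.47 times that of the rest of the body in untreated cells (1.31 to 1.64) and 1.53 times after LPS (1.47 to 1.61), against medians of 1.26 and 1.08 over the long genes. These values lay above 58.1% of the long genes in untreated cells and above 67.3% after LPS, so a flank of this density was common. Both values depend on the length taken: a flank of 5 kb gave 1.82 and 1.36, which turns the order of the conditions, and a flank of 20 kb gave 0.792 and 0.912, below the body. The LPS to untreated ratio of the flank was 7.00 (6.32 to 7.77), where 7.49% of the 8424 long genes with enough tags past their end were at least 2 times higher.

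In steps of 2 kb past the end, the untreated density ran at 6.17, 7.48, 6.10 and 7.16 TPM per kb up to 8 kb, then fell to 1.51 in the step to 10 kb and to 0.460 in the step to 12 kb. After LPS it ran at 34.1, 35.4 and 37.8, reached 61.4 in the step from 6 to 8 kb, and then stood at 30.2, 17, 11.3 and 6.00 in the steps up to 16 kb. Tags after LPS thus stayed high over a longer stretch than in untreated cells. The ratio followed from these values: 4.74 (3.85 to 5.87) between 2 and 4 kb, 8.59 (7.02 to 10.6) between 6 and 8 kb, 20.0 (13.1 to 31.9) between 8 and 10 kb, and 36.9 (17.6 to 92.9) between 10 and 12 kb, on 7 tags in untreated cells and 212 after LPS. Input density in these steps lay between 0.531 and 1.26 TPM per kb. Within the step from 6 to 8 kb, the 1 kb bin from 132942651 to 132943650 held 75 tags in untreated cells, 547 after LPS and 5 in the input. Its density after LPS was 87.5 TPM per kb, and where the Pol_II in this bin began was not tested.

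The peaks gave the same extent. In untreated cells the last peak ended 7778 bp past the gene. After LPS a run of peaks with gaps of less than 1 kb reached 15642 bp, at the list's threshold and with p at most 1e-10, and a last isolated peak, the downstream Il10 peak printed above, reached 19935 bp. That peak (132930346 to 132930663, score 90.2) held 1 tag in untreated cells, 11 after LPS and 1 in the input, 14082 bp past the Il10 TSS.

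**Figure D4:**
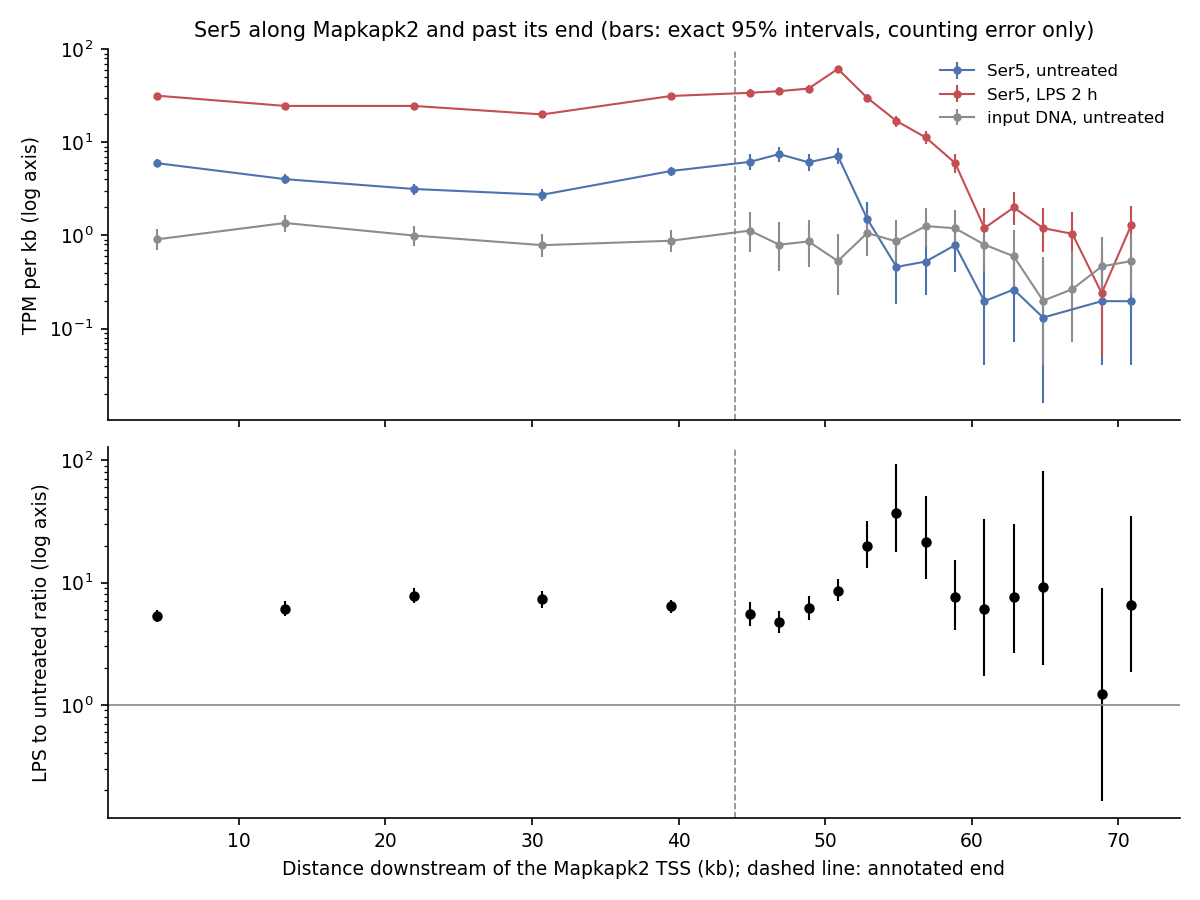
Density in TPM per kb (top, log axis) and LPS to untreated ratio (bottom, log axis) in 5 equal parts of Mapkapk2 and in 2 kb steps past its end, by distance in kb downstream of the TSS, with exact 95% intervals of counting error and steps with 0 tags in a library left out of its line and of the ratio. The blue line (untreated) drops after 8 kb past the dashed end and the red line (LPS) only later, so that the ratio peaks at 36.9 between 10 and 12 kb past the end.

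Counts were low between the run of LPS peaks past Mapkapk2 and the body of Il10, but Ser5 after LPS was not at the input throughout. The steps from 16 to 24 kb past Mapkapk2 held between 13 and 25 tags after LPS and at most 4 in untreated cells. The step from 24 to 26 kb held 3 tags in each condition. Scaled to library totals, LPS Ser5 stood at 1.51 (0.658 to 3.53), 3.35 (1.51 to 8.15), 6.03 (1.70 to 32.5) and 3.92 (1.21 to 16.5) times the input in the steps from 16 to 24 kb. From 24 to 26 kb it was 0.517 times (0.0862 to 2.26), and over the Il10 body 2.14 times (1.46 to 3.17). Density after LPS from 18 to 20 kb was 2.00 TPM per kb. In the last step before Il10, from 26 to 28 kb, 3 tags were counted without LPS and 16 with it (6.50, 1.86 to 34.8). The 5 kb just past the end of Il10 held 7 tags in untreated cells, 28 after LPS and 20 in the input, 0.896 TPM per kb after LPS (0.595 to 1.30) against 2.43 in the Il10 body. Tags carry no strand of transcription. At any one place, Pol_II reading Il10, Pol_II reading on from Mapkapk2 and Pol_II that began within the space therefore cannot be told apart. In the 10 kb upstream of Il10 there were 34, 71 and 82 tags (ratio 2.54, 1.67 to 3.95), with the LPS density 1.04 times the input (0.749 to 1.45).

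The genes on either side of the locus were read the same way. Of the 6 nearest protein-coding neighbours, Fcamr, Pigr and Faim3 beyond Il24 and Dyrk3, Eif2d and Rassf5 beyond Mapkapk2, 0 were at least 2 times higher and 0 lower in the gene body, with a median ratio of 0.923. With 5.83% of all genes higher, 0 of 6 is near the background. Pigr, the receptor that carries polymeric antibodies across epithelia, held 28 and 32 Ser5 tags. Dyrk3, a protein kinase and the nearest of these genes to Mapkapk2, held 66 and 38 (ratio 0.702, 0.458 to 1.06). At the TSS, Dyrk3 went from 133 to 35 tags (0.321) and Eif2d from 127 to 44 (0.422), both lower by the rule. Of all genes with enough TSS tags, 14.1% were lower. Rassf5 went from 91 to 87 TSS tags (1.17), and Fcamr, Pigr and Faim3 held at most 3 in either library.

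The genes closest to Il10 in body density over the 3 libraries, by Euclidean distance of log2(TPM per kb plus 0.1), were Apof (distance 0.243), Camp (0.365) and Slpi (0.380). Their LPS to untreated ratios were 3.22, 3.21 and 2.74, Apof and Camp on 37 and 29 LPS tags. Those closest to Mapkapk2 were Sdc4 (0.209), Ctsc (0.229) and Niacr1 (0.304), with ratios of 5.53, 7.08 and 8.21. Likeness over 3 libraries says only that the levels are alike.

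Other genes of the pathways around the locus were read from lists and counted in the gene body against the same 5.83% higher and 11.3% lower. Of the IL-10 family ligands encoded elsewhere, Il22, Iltifb, Il28a and Il28b held between 0 and 3 Ser5 tags in either library, too few for the rule. Of 7 receptor genes, 2 were higher and 0 lower, with a median ratio of 1.49. Il10ra, the subunit that binds IL-10, went from 9.19 to 13.7 TPM per kb (ratio 1.49, 1.38 to 1.62), and Il10rb, the subunit shared with other family receptors, from 8.24 to 5.87 (0.712, 0.649 to 0.782). Both IL-10 receptor subunits thus carried Ser5 in both conditions and neither passed the rule.

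The receptor genes for the other ligands stood at or below 1.38 TPM per kb. Il20rb, a subunit for IL-19, IL-20 and IL-24, was called higher, with 142 tags in untreated and 250 in LPS-treated cells (ratio 2.15, 1.74 to 2.66). Il20ra, its partner subunit, held 24 and 34 tags (1.73, 0.994 to 3.04), and Il22ra1, the other partner, 20 and 18 (1.1, 0.547 to 2.18). Il22ra2, a soluble receptor that captures IL-22, held 10 and 20 tags and 73 in the input (2.44, 1.09 to 5.83), and Il28ra 25 and 20 (0.975, 0.514 to 1.83). Of these 5 genes, Il20rb alone stood above the input in the LPS library when scaled to library totals.

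Among 10 genes of IL-10 receptor signalling, 5 were higher and 0 lower, with a median ratio of 1.98. Socs3, an inhibitor of cytokine signalling that Stat3 induces, went from 244 to 2129 tags (10.6, 9.31 to 12.2). Socs1, a related inhibitor, went from 156 to 525 (4.10, 3.42 to 4.94), and the kinase Tyk2 from 430 to 880 (2.49, 2.22 to 2.81). Bcl3 was also higher (2.23, 2.01 to 2.46). Stat3 itself, the factor that IL-10 activates, held 653 and 690 tags (1.29, 1.16 to 1.44).

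Of 13 genes of the p38 and MK2 pathway with enough tags, 4 were higher and 1 lower, with a median ratio of 1.33. Mapk14, the main p38 kinase that activates MK2, held 1307 and 1066 tags (0.994, 0.916 to 1.08), so its ratio sat at 1 beside the 6.36 of Mapkapk2. Zfp36, which encodes tristetraprolin, was higher at 795 and 1636 tags (2.51, 2.30 to 2.73). Mapk11, another p38 kinase, had a ratio of 2.46 (1.71 to 3.59), Rps6ka4, a nuclear kinase downstream of p38, 2.41 (2.00 to 2.91), and Map2k4, a kinase upstream of p38 and JNK, 2.34 (2.07 to 2.65). Zfp36l1, a relative of tristetraprolin, was lower at 269 and 50 tags (0.227, 0.164 to 0.307). Hspb1, a substrate of MK2, held 3 and 5 tags, too few for the rule.

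Of 19 transcription factor genes whose products bind Il10 regulatory DNA or its chromatin, 6 were higher and 2 lower, with a median ratio of 1.06. The highest ratios were those of Nfkb1 (5.61, 5.30 to 5.93), the interferon factor Irf1 (5.05, 4.59 to 5.56), the NF-kB subunit Rel (4.31, 3.81 to 4.88) and Prdm1, a transcriptional repressor (4.17, 3.49 to 5.01). Lower were Jun (0.429, 0.373 to 0.492) and Fos (0.495, 0.417 to 0.585), the classical AP-1 subunits, while Junb (2.09, 1.91 to 2.27) and Atf3 (3.32, 3.08 to 3.59), of the same wider family, were higher. Fos no longer passed with 1 tag per position and strand (0.514) or with scaling to the tags outside peaks (0.533). The list thus held genes that moved both ways.

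For orientation, the induced genes Ccl5 and Tnf had body ratios of 396 and 9.62 and the constitutive gene Gapdh 0.803. The 7 macrophage markers reached a median of 19.2 TPM per kb in untreated cells and 11 after LPS, with 4 lower, 2 higher and Csf1r at 3883 and 1431 tags. Among markers of other cells, the medians were at most 0.246 TPM per kb for T cells, B cells, neutrophils, and keratinocytes or fibroblasts in untreated cells and at most 0.324 after LPS. The highest of these markers was Lck, a T cell kinase, at 1.62 and 1.78 TPM per kb. Their part in the low counts of Il19, Il20 and Il24 was not tested. Distinct positions and strands came to between 81.4% and 84.5% of the tags of a library.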

How the data were processed

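The study's ChIP-Seq files were used as deposited. Per the study's methods, the authors shortened 76-base reads from the 3′ end, kept those placed uniquely on mm9 by Bowtie (up to 2 mismatches), and called peaks per Ser5 library with MACS, the input as control, at p 1e-05. The deposited peak lists give a score per peak, 10 times −log10 of the MACS p-value, and replicates were neither made nor pooled. Tool versions are not given in the sources used here. The deposited tags are 45 (untreated), 30 (LPS) and 36 bases long (input), while the methods text gives the first 2 lengths the other way round, and the files were followed.

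Tags with their 5′ end in a region were counted, duplicates kept, with gene positions from GENCODE M1 on the same assembly. Regions were the gene body (outermost annotated ends), the TSS with 1 kb on each side, the spaces between genes, 2 kb tiles, and the 10 kb past the end of genes. Intervals at 95% were exact Poisson for counts and exact conditional on the sum for ratios. With 1 library per condition no test was run, and 0 tags counted as 0.5 in the rule of size only. The 5 members, the gene lists, the letter strings and the alternatives were chosen with earlier results of these data known. The named genes were the members and their neighbours, up to 4 list genes per direction past the rule of size, all receptor subunits, Mapk14, Zfp36 and Hspb1, the 3 genes most like Il10 and Mapkapk2 in the 3 libraries, and Ccl5, Tnf and Gapdh. Bcl3, Junb, Atf3, Stat3, Csf1r, Lck and Cebpe were named after their values were seen. The name and values of 1 other list gene past the rule are not reported here. List symbols without a gene in the annotation were Ifnl2, Ifnl3, Ifnlr1 and Cebpd. Repeated sequence was found by counting 30-base sequences on both strands of the assembly. Python 3.11.15, numpy 2.4.6, pandas 2.3.3, scipy 1.17.1, numba 0.67.0 and matplotlib 3.10.9 were used, and counts and intervals were first tested on simulated data.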

Additional observations from a re-analysis of the deposited data

How the results depend on the processing

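Of 224 recomputed values, 189 stayed within the counting interval of the reported value (counts within 1.5 times). Scaling to the tags outside peaks moved the median gene body ratio by 0.11 on the log2 scale, from 0.874 to 0.940. Under it the Mapkapk2 ratios became 6.84 for the body and 7.21 for the body without its first 1 kb, the body stood at 8.03 (untreated) and 54.9 (LPS) times the input, Il10 at 1.28 and 4.37 times, and Il19 after LPS at 1.70 times. Under it the spaces stood at 0.463 and 0.721 (Il24 to Il20), 0.457 and 1.23 (Il20 to Il19), 0.509 and 1.11 (Il19 to Il10) and 5.49 and 45.5 times the input (Il10 to Mapkapk2), untreated then LPS. The alternatives for spaces against input, for the count of members called and for Jun and Fos were chosen after seeing the data. Counting 1 tag per position and strand gave a Mapkapk2 TSS to body density of 4.96 in untreated cells and 2.31 after LPS, and under it and under the other scaling 1 transcription factor gene was lower instead of 2. Moving tags 75 bp downstream moved no value past its interval. With 500 bp on each side of the TSS the Il19 ratio was 0.812, on 3 and 2 tags, the Il10 ratio 2.59, past the rule of size, and Il24 and Il20 had a ratio of 0. Windows of 1 kb gave 77 with enough tags and 75 higher, and windows of 5 kb 30 and 22. For 2 kb windows, a minimum of 5 tags gave 68 and 51, with 2 lower, and a minimum of 20 tags 38 and 37. The shares over all windows of the genome were not computed at these settings, so these counts have no background beside them. For Mapkapk2 a flank of 5 kb gave 1.82 (untreated) and 1.36 (LPS) times the body density and a ratio of 5.02, and a flank of 20 kb 0.792 and 0.912. With p at most 1e-10, 15 untreated peaks were left, all 15 overlapping an LPS peak (again with no share over all peaks), and 0 LPS peaks in Il10. The innermost Il24 start had 0 untreated tags and gave no ratio. The cause of these shifts was not tested. With 1 library per condition no replicate could be left out and no spread between cultures is known, and regions under 10 Ser5 tags were not called. No paired analysis was possible because no test was run and each condition has 1 library.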

Other observations

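Upstream of Mapkapk2, the space of 30873 bp to Dyrk3 held 367 Ser5 tags in untreated cells, 917 after LPS and 240 in the input, a ratio of 3.05 (2.69 to 3.45). The space begins at the GENCODE start and so takes in part of the Mapkapk2 promoter peak, which runs to 132994681 in untreated cells and to 132994944 after LPS. The 1 kb bin across that start (132993651 to 132994650) held 292, 707 and 11 tags. The ratio of the space is therefore not that of intergenic DNA alone. Besides a peak just upstream of the Mapkapk2 TSS (10 LPS tags against 7 in the input), 2 LPS peaks stood in it. The one centred 6260 bp upstream of the Mapkapk2 TSS (132999835 to 133000973) held 30, 103 and 20 tags, a ratio of 4.18 (2.76 to 6.51), and overlaps the only untreated peak of the space. The other, 13083 bp upstream (133006588 to 133007867), held 27, 100 and 17 tags, a ratio of 4.51 (2.93 to 7.18), and had no untreated peak. Both had higher scores (479 and 340) than any peak in or upstream of Il10, and their ratios lay above the 2.93 of the Mapkapk2 TSS window, with intervals that overlap that of the TSS window.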
